A study of Mus musculus with 3 samples.

Results

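The distal RARβ peaks described here are sites of retinoic acid receptor beta that lie away from the promoter mark H3K4me3 in the caudate putamen, a striatal region of the mouse forebrain. They were chosen by position, as peaks of the RARβ list that share no bp with an H3K4me3 peak and whose nearest edge lies over 5 and at most 100 kb from the nearest edge of one. This rule took 1772 of the 8075 RARβ peaks, a share of 21.9% (Wilson 95% interval 21.1 to 22.9). Of the other RARβ peaks, 734 lay outside the mark but within 5 kb of it, 325 lay beyond 100 kb, and 5244 shared at least 1 bp with an H3K4me3 peak. With H3K4me3 peaks limited to an FDR (false discovery rate) of at most 5%, the rule took 2848 peaks, or 35.3%, because RARβ peaks in or near weaker marks then counted as outside.

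Chromatin immunoprecipitation with sequencing was done on brain tissue of wild-type male mice of the mixed strain C57BL/6J x 129SvEms/j, with 1 library against RARβ and 1 against H3K4me3. The labels give no treatment and no number of animals, and a library made with an anti-GFP antibody is not used here. The tissue is bulk, so a site bound in few cells and a site bound weakly in many cannot be told apart. With 1 library per antibody no value has a replicate error, no test between groups of peaks was made, and all intervals cover counting error only.

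RARβ is a nuclear receptor. Together with a retinoid X receptor it binds DNA at retinoic acid response elements, which are repeats of a short hexamer, and it recruits corepressors or coactivators depending on the ligand. In the striatum RARβ is the prominent retinoic acid receptor and is needed for the development and function of its projection neurons. H3K4me3 is the histone mark of active promoters, and broad domains of it are known from genes of cell identity. Sites away from the mark may lie in enhancers or in other sequence. "Distal" is used here for distance from the mark only. An annotation and sequence of build mm9, the build of the files, were not used here, so peaks are named by position and their genes, gene parts and motifs are not stated.

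The typical distal peak was small. Its tags, which are the reads counted in the peak, ranged from 7 to 405 with a median of 9 and quartiles of 7 and 12. The median over all RARβ peaks was 10 tags. The fewest tags in the list, 7, were found in 29.1% of distal peaks (516 of 1772, Wilson 95% interval 27.1 to 31.3) and in 17.5% of peaks in H3K4me3 (16.5 to 18.6), against 21.8% of all RARβ peaks. At least 20 tags were found in 7.28% of distal peaks (129 of 1772, 6.16 to 8.58) and in 13.1% of peaks in H3K4me3 (12.2 to 14.0), against 11.1% of all. Distal peaks differed little in this from the peaks on either side of them by distance. Those within 5 kb had at least 20 tags in 7.49% of cases and those beyond 100 kb in 7.08%, both with intervals that overlap the distal one. All distal peaks together held 19986 tags, which is 19.6% of the tags in RARβ peaks and 0.893% of the filtered library.

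**Figure D1:**
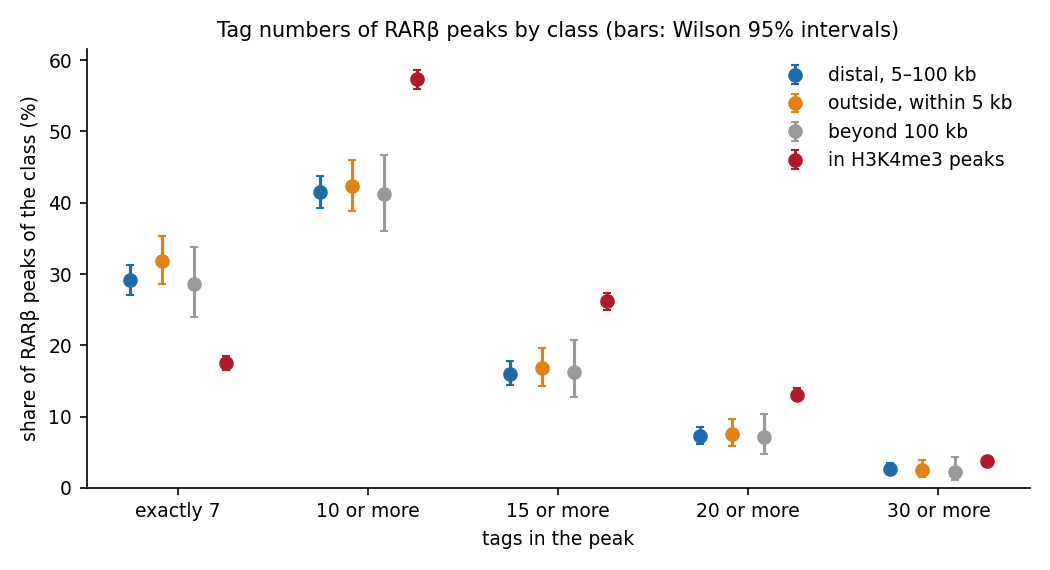
Share of RARβ peaks (y axis, percent) with exactly 7 tags or with at least 10, 15, 20 or 30 tags (x axis), in 4 classes of distance from H3K4me3, with Wilson 95% intervals as bars. The distal peaks, in blue, stand beside the other 2 classes outside the mark. Up to 20 or more tags they stand apart from the peaks in H3K4me3, with 41.5% against 57.3% at 10 or more tags. At 30 or more tags the intervals overlap, with 2.65% (2.00 to 3.51) in distal peaks and 3.76% (3.275 to 4.31) in peaks in H3K4me3.

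Like the other peaks outside the mark, distal peaks were narrower than peaks in H3K4me3. Their median width was 617 bp (order-statistic 95% interval 610 to 624), against 673 bp (667 to 680) for peaks in H3K4me3. Peaks within 5 kb had a median of 621.5 bp and those beyond 100 kb one of 583 bp. Fold enrichment, the ratio of the summit pileup to the local background as the authors' peak caller gave it, had a median of 21.07 (20.43 to 22.99) in distal peaks and 19.35 in peaks in H3K4me3. It was 20.43 (19.35 to 22.70) within 5 kb and 22.99 (22.53 to 23.21) beyond 100 kb, so distal peaks lay between the classes on either side of them. The peak score, 10 times the negative log10 of its p-value, had a median of 71.78 in distal peaks and 76.36 in all other RARβ peaks. The difference in score was -4.58, and it became 0.28 with H3K4me3 peaks limited to an FDR of at most 5%. At equal tag numbers, the gap in fold between peaks outside the mark and in it was wider at 20 to 29 tags than at 7. This held in distal peaks as in the other classes outside the mark. Among peaks of 7 tags the median fold was 19.35 in distal peaks and 19.16 in peaks in H3K4me3. Among peaks of 15 to 19 tags it was 29.2 (27.1 to 30.9) in 155 distal peaks and 22.99 (21.07 to 22.99) in 687 peaks in H3K4me3, while it was 28.1 within 5 kb and 30.5 beyond 100 kb. Among peaks of 20 to 29 tags it was 38.8 (37.0 to 42.6) in 82 distal peaks and 28.74 (27.08 to 30.65) in 489 peaks in H3K4me3, with median widths of 964.5 bp in distal peaks and 1093 bp in H3K4me3. At this tag number it was 42.24 (35.44 to 50.3) in 37 peaks within 5 kb and 50.1 (36.26 to 65.77) in 16 peaks beyond 100 kb. At 30 or more tags it was 58.04 (40.87 to 65.77) in 47 distal peaks and 43.79 (36.65 to 50.3) in 197 peaks in H3K4me3. It was 59.24 in 18 peaks within 5 kb and 46.43 in 7 peaks beyond 100 kb.

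The local background behind the fold also differed. It stood at its genome-wide minimum in 38.3% of distal peaks (678 of 1772, 36.0 to 40.5) and in 26.4% of peaks in H3K4me3 (25.2 to 27.6), against 30.7% of all RARβ peaks. The share was 36.8% (33.4 to 40.3) within 5 kb and 44.0% (38.7 to 49.4) beyond 100 kb, so it too was higher in all 3 classes outside the mark than in it. A peak was counted there when its fold, to within 0.01, matched a pileup of whole tags divided by the background expected for the whole genome. A background only slightly above this minimum was not counted, so the shares do not show how large the difference in background was. Among the peaks counted at the minimum the median fold was 23.21, or a pileup of 6 tags, both in distal peaks and in peaks in H3K4me3. At this background 1 tag of pileup is a step of 3.87 in fold. The difference of 1.72 between the median folds of all distal peaks and all peaks in H3K4me3 is smaller than that step. The part of the control reads in the difference in fold was not tested.

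The 10 distal sites with the highest fold enrichment were spread over 7 chromosomes. The first of them, on chromosome 1 at 184430747 to 184431566, had 107 tags (Poisson 95% interval 87.7 to 129) and a fold enrichment of 375.3, the highest of the RARβ list. Its nearest H3K4me3 peak, at 184419630 to 184421019, was 1390 bp wide and held no RARβ peak. The second by fold lay on chromosome 4 at 66555073 to 66556489, with 54 tags and a fold of 127.68, 27.7 kb from a 1053 bp H3K4me3 peak. The third lay on chromosome 7 at 103870851 to 103871816, with 58 tags and a fold of 107.28, 25.1 kb from a 1185 bp H3K4me3 peak that held a RARβ peak. These 3 sites had no other RARβ summit within 10 kb. The first had an FDR of 0, the second one of 6.67% and the third one of 8.33%, the highest of all distal peaks. The median FDR of distal peaks was 0.09%. Apart from the first site, the FDR rose with the score among the 10 distal peaks with the highest score. It went from 1.59% at a score of 415.56 to 8.33% at a score of 665.38, so a high FDR here does not mark a weak peak.

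Other strong sites lay farther from the mark. A site of only 507 bp on chromosome 4 at 95439332 to 95439838 held 33 tags at a fold of 88.42 and lay 97.6 kb from the nearest mark. A site on chromosome 9 at 49216430 to 49217924 held 47 tags at a fold of 88.99 and lay 56.4 kb away. On chromosome 5, at 131258624 to 131259661, a site with 46 tags and a fold of 99.95 lay 39.8 kb away. Over the 10 distal peaks with the highest fold, tags ranged from 31 to 107, fold from 85.12 to 375.3 and distance from 9.45 to 97.6 kb. Their FDR ranged from 0 to 8.33%. The nearest H3K4me3 peak held a RARβ peak at 3 of these 10, against 17.4% of all distal peaks. It was among the widest 10% of marks at none, against 9.09% of all distal peaks. With 10 peaks these counts do not set the strong sites apart. Of the 10 with the highest score, 6 were the same peaks, and the additional ones included a pair on chromosome 16 that is described with the groups.

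Some distal peaks had many tags and little enrichment. The largest by tags, on chromosome 9 at 35112630 to 35113276, counted 405 (Poisson 95% interval 367 to 446) with a fold of 2.74. Chromosome 1 carried a second such peak, at 186854555 to 186855618, where 97 tags came with a fold of 3.50. The other was found on chromosome 11, at 108872796 to 108873601, where 79 tags came with a fold of 3.77. Among distal peaks these 3 had a fold under 5, a share of 0.169%, against 0.0619% of all RARβ peaks (5 of 8075). The share was 0.615% beyond 100 kb (2 of 325, with 573 and 882 tags). It was 0 within 5 kb and in H3K4me3. The distal peak next to these 3 in tags, on chromosome 5 at 147072404 to 147073315, had 70 tags and a fold of 15.8. Across the 1772 distal peaks, tags and fold had a Spearman coefficient of 0.386, as a description of peaks of 1 library whose fold is computed from their tags.

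**Figure D2:**
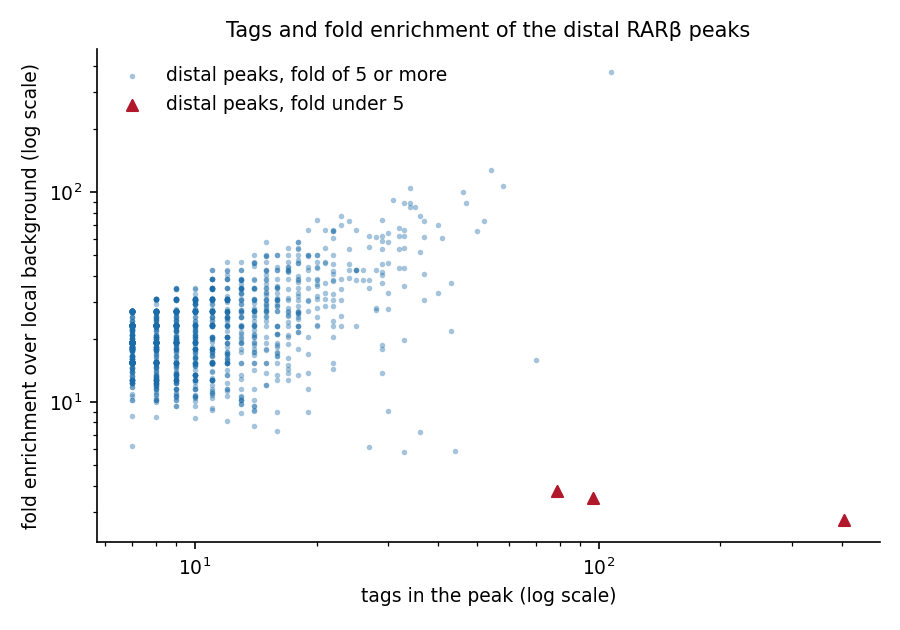
Tags (x axis, log scale) and fold enrichment over the local background (y axis, log scale) of each of the 1772 distal RARβ peaks. Peaks with more tags tend to have a higher fold, the highest point has 107 tags and a fold of 375.3, and the 3 triangles at the lower right are the peaks with a fold under 5.

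Within the zone, distal peaks lay toward the mark. Their median distance from the nearest H3K4me3 edge was 19.2 kb (order-statistic 95% interval 18.1 to 20.2), with quartiles of 10.6 and 36.0 kb. All sequence between 5 and 100 kb from a mark had a median distance of 26.3 kb. On the other side, the next H3K4me3 peak was a median of 63.0 kb away. The nearest mark was at lower coordinates for 894 distal peaks and at higher coordinates for 878. RARβ summits numbered 1.797 per Mb of sequence (Poisson 95% interval 1.63 to 1.98) at 5 to 10 kb from a mark and 1.67 per Mb (1.53 to 1.82) at 10 to 20 kb. They numbered 1.23 per Mb (1.13 to 1.33) at 20 to 50 kb and 0.745 per Mb (0.656 to 0.842) at 50 to 100 kb. The density within 5 kb was 2.74 per Mb, and beyond 100 kb it was 0.401 per Mb.

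The density at 5 to 10 kb was thus 2.41 times that at 50 to 100 kb. With H3K4me3 peaks limited to an FDR of at most 5%, this ratio was 1.49 and the density over the whole zone was 2.84 per Mb, against 1.30 per Mb with all of them. With RARβ peaks of at least 10 tags the density was 0.545 per Mb. A lower density far from the mark was also seen among gaps of similar length. In gaps of 50 to 200 kb the density was 1.59 per Mb (1.34 to 1.88) at 5 to 10 kb, 1.65 at 10 to 20 kb, 1.42 at 20 to 50 kb and 0.915 (0.748 to 1.11) at 50 to 100 kb. In gaps over 200 kb, each of which holds sequence of every bin, it was 1.30 per Mb (0.869 to 1.86) at 5 to 10 kb and 0.657 (0.555 to 0.773) at 50 to 100 kb. Sequence where no read can be placed is counted in these lengths, so densities in long gaps can be too low.

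While the number of sites per Mb varied with distance, their size differed little. The median was 9 tags in each of the 4 distance bins from 5 to 10 kb up to 50 to 100 kb. The median fold was 21.07, 22.99, 20.43 and 20.90 in these bins in order of distance, with overlapping intervals. Peaks of at least 20 tags made up 6.52%, 6.90%, 8.42% and 6.53% of them in the same order. Over the 1772 peaks, distance had a Spearman coefficient of -0.00958 with tags and -0.0178 with fold, and a Pearson coefficient on log values of -0.00545 with tags and -0.00606 with fold.

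The peaks at the bounds of the rule are given as a description. The 5 distal peaks just inside the lower bound lay 5016 to 5056 bp from the mark with 7 to 11 tags, and the 5 just outside it lay 4928 to 4988 bp away with 9 to 20 tags. The 5 just inside the upper bound lay 98080 to 99834 bp away with 7 to 11 tags, and the 5 just outside it lay 100365 to 101734 bp away with 7 to 19 tags.

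The mark nearest to a distal peak was often a weak one. Its median was 132 H3K4me3 tags (123 to 142) at a fold of 7.48 and a width of 1440 bp, against 206 tags, a fold of 10.27 and 1679 bp over all H3K4me3 peaks. Sequence of the same zone, weighted by length, had a nearest mark with a median of 193 tags, a fold of 10.53 and 1577 bp. The nearest mark had an FDR of 5% or less for 26.5% of distal peaks (469 of 1772, 24.5 to 28.6), against 34.5% for sequence of the zone and 35.0% of all H3K4me3 peaks. This share was 23.2% (20.3 to 26.3) for RARβ peaks within 5 kb of a mark without touching it. It was 28.6% (24.0 to 33.8) for those beyond 100 kb, so the low share was not particular to distal peaks. For distal peaks, the nearest mark with an FDR of 5% or less was a median of 63.4 kb away. For 626 of them (35.3%) it was beyond 100 kb.

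Marks next to distal peaks held a RARβ peak of their own more often than marks next to the same kind of sequence. The nearest mark held one for 309 of the 1772 distal peaks, or 17.4% (15.7 to 19.3), against 11.0% for sequence of the zone and 13.1% of all H3K4me3 peaks. For RARβ peaks within 5 kb of a mark without touching it the share was 23.2% (20.3 to 26.3), and for those beyond 100 kb it was 11.4% (8.37 to 15.3), with the distal share between them. Either flanking mark held one for 30.3% of distal peaks (28.2 to 32.5), against 20.4% for the zone. The share was 25.1% (21.1 to 29.5) for distal peaks at 5 to 10 kb and 12.04% for sequence there. At 10 to 20 kb it was 17.6% for distal peaks and 11.7% for sequence, and at 20 to 50 kb 15.2% for distal peaks and 10.9% for sequence. At 50 to 100 kb, with 10.2% (7.01 to 14.6) for distal peaks and 9.87% for sequence, the interval held the value of the zone. Among nearest marks with an FDR above 5%, 13.4% (11.7 to 15.4) held a RARβ peak for distal peaks and 5.92% for the zone.

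Grouped and single distal peaks differed in this share in part by construction. For the 299 distal peaks with another RARβ summit within 10 kb the nearest mark held a RARβ peak in 39.5% of cases (34.1 to 45.1), and for the 1473 others in 13.0% (11.3 to 14.8). At 5 to 10 kb the grouped ones reached 64.1% and the single ones 8.87%, where the neighbour within 10 kb can itself be the peak in the mark. Over 10 kb from the mark, a limit added after these values were seen, the share was 23.6% (43 of 182, 18.0 to 30.3) for grouped and 13.9% (166 of 1191, 12.1 to 16.0) for single distal peaks, against 10.8% for the zone. At 10 to 20 kb the share was 32.4% (22.4 to 44.2) for grouped and 15.4% (12.4 to 19.03) for single distal peaks, against 11.7% for the zone. At 20 to 50 kb it was 15.4% (9.39 to 24.2) for grouped and 15.1% (12.3 to 18.5) for single ones, against 10.9% for the zone. At 50 to 100 kb it was 30.4% (7 of 23, 15.6 to 50.9) for grouped and 8.11% (5.19 to 12.5) for single ones, against 9.87% for the zone. At 10 to 20 and 20 to 50 kb, the bins with most distal peaks, single peaks were thus also above the zone.

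Counting marks of any strength, the nearest one was among the widest 10% about as often for distal peaks as for sequence of the zone. Counting only marks with an FDR of at most 5%, it was so more often for distal peaks. The nearest mark of any strength was among the widest 10% of H3K4me3 peaks, which are 4176 bp or more wide, for 161 distal peaks or 9.09% (7.83 to 10.5). This share was 9.36% for sequence of the zone and 10.0% over all H3K4me3 peaks. It was 13.0% (10.1 to 16.7) for distal peaks at 5 to 10 kb, against 9.24% for sequence there, and 5.71% (3.43 to 9.36) at 50 to 100 kb, against 9.83%. A nearest mark of at least 8000 bp was found for 29 distal peaks, or 1.64% (1.14 to 2.34), against 0.934% for the zone and 1.31% of all H3K4me3 peaks. Either flanking mark was that wide for 3.67% of distal peaks (2.89 to 4.65), against 1.87% for the zone. Such a mark was nearest to 2.59% (1.66 to 4.01) of RARβ peaks within 5 kb and 2.46% (1.25 to 4.78) of those beyond 100 kb. The nearest mark with an FDR of at most 5%, in contrast, was among the widest 10% of all marks for 46.3% of the same 1772 peaks (44.0 to 48.6), against 33.7% for the zone. It was at least 8000 bp wide for 228 of them, or 12.9% (11.4 to 14.5), against 5.24% for the zone. With H3K4me3 peaks limited to that FDR throughout, 28.8% of the 2848 peaks then distal lay nearest to one of the widest 10% of those marks, against 12.2% for the zone.

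**Figure D3:**
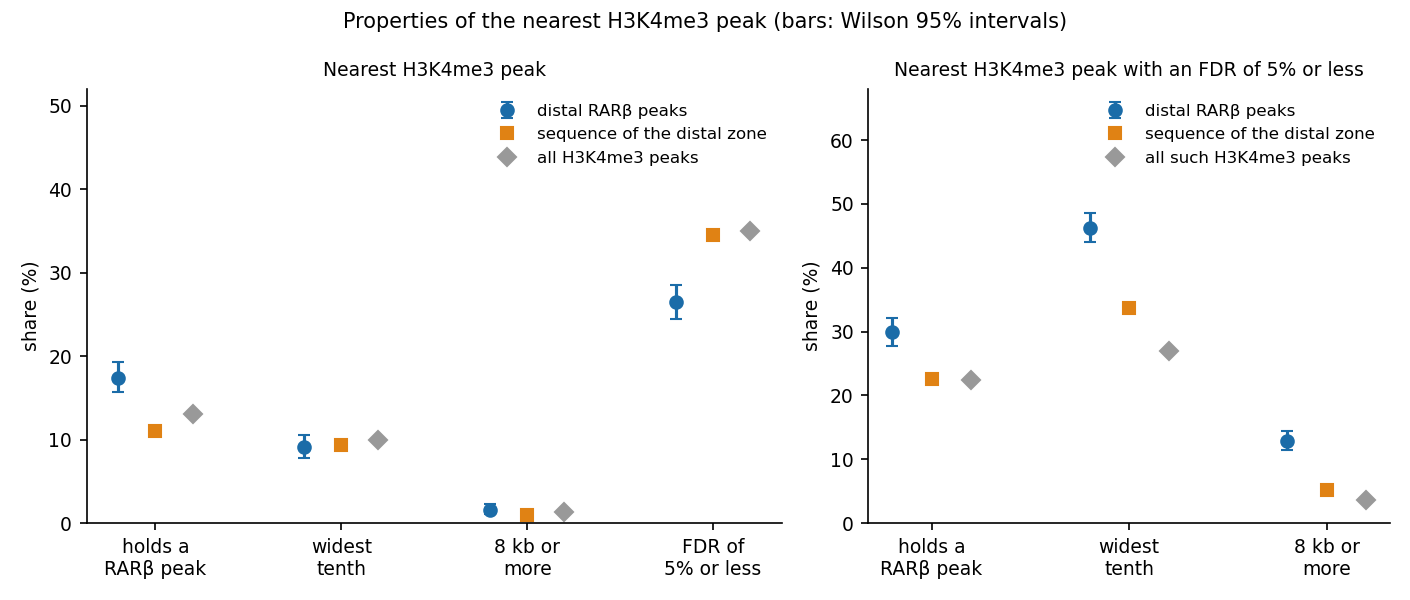
Share (y axis, percent) of nearest H3K4me3 peaks with each property (x axis), for distal RARβ peaks in blue with Wilson 95% intervals, for sequence of the same zone in orange and for all H3K4me3 peaks of the kind in grey. Counting marks of any strength, on the left, distal peaks are above the zone for marks that hold RARβ, with 17.4% against 11.0%. They are also above it for marks of 8 kb or more, with 1.64% against 0.934%. For marks with an FDR of at most 5% they are below it, with 26.5% against 34.5%. Counting only marks with such an FDR, on the right, distal peaks are above the zone in all 3 properties.

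Distal peaks were dense around broad H3K4me3 domains, a comparison chosen after its values were seen. There were 473 H3K4me3 peaks of at least 8000 bp, 459 of them with an FDR of at most 5%. In sequence of the distal zone within 25 kb of such a domain, distal peaks numbered 4.46 per Mb (Poisson 95% interval 3.31 to 5.88). They numbered 3.20 per Mb at 25 to 50 kb, 2.91 at 50 to 100 kb, 2.24 (1.92 to 2.60) at 100 to 250 kb, 1.62 at 250 to 500 kb and 1.08 (1.02 to 1.14) farther away. Within 100 kb of a domain there were 187 distal peaks, a density 2.75 times that of the rest of the zone. At a matched distance from the nearest mark the ratio was 2.87 at 5 to 10 kb, 2.45 at 10 to 20 kb, 2.00 at 20 to 50 kb and 2.43 at 50 to 100 kb. The last rests on 10 distal peaks near domains, at 1.71 per Mb (0.822 to 3.15) against 0.705 (0.618 to 0.801) elsewhere. Over the whole zone without the 13 windows of 5 Mb that held 12 or more distal peaks the ratio was 2.81, and over single peaks alone 2.05.

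Of the 473 domains, 147 (31.1%) had a distal peak within 100 kb, against 1827 of 12114 narrower marks with an FDR of at most 5% (15.1%). The 187 distal peaks near domains had the same median of 9 tags as the 1585 others. They were in groups more often, at 36.4% against 14.6%. Among the 10 widest marks of all, 4 had a distal peak within 100 kb. The one on chromosome 16 at 35152624 to 35188755 had 5, with 12, 40, 7, 50 and 11 tags, and the one on chromosome 2 at 115876633 to 115902684 had 3, with 8, 8 and 10 tags.

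**Figure D4:**
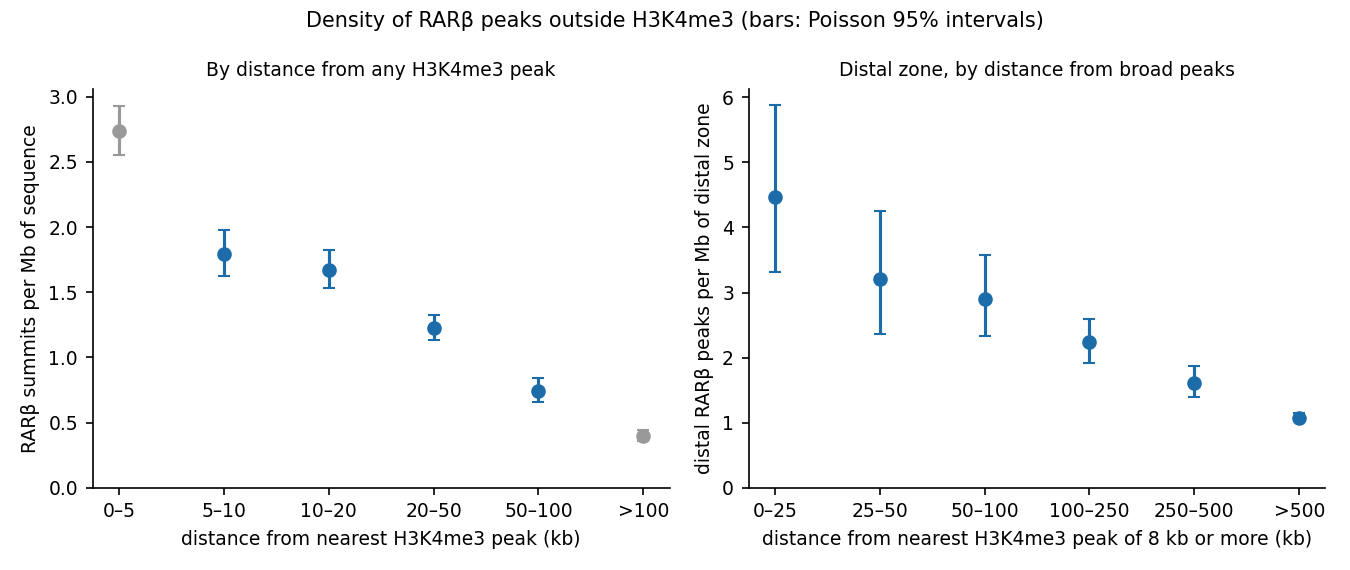
On the left, RARβ summits per Mb of sequence (y axis) by distance from the nearest H3K4me3 peak (x axis, kb), with the distal zone in blue and the sequence on either side of it in grey, and on the right, distal RARβ peaks per Mb of the distal zone (y axis) by distance from the nearest H3K4me3 peak of at least 8000 bp (x axis, kb). Bars are Poisson 95% intervals, and both densities are lower at each step away, ending at 0.401 and 1.08 per Mb.

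Most distal peaks stood alone. Another RARβ summit lay within 10 kb of 299 of them, or 16.9% (15.2 to 18.7), and within 10 kb of 31.4% of peaks in H3K4me3 (30.1 to 32.6), against 28.2% of all RARβ peaks. Part of this difference is set by the distance rule. A distal peak over 10 kb from the mark cannot have a summit inside a mark within 10 kb. For peaks outside but within 5 kb the share was 40.7%, and for those beyond 100 kb it was 10.5%. The share of distal peaks was 9.14% with a limit of 5 kb, against 20.1% of all RARβ peaks. With a limit of 20 kb it was 29.8%, against 38.9%. With H3K4me3 peaks limited to an FDR of at most 5% it was 26.3%. By distance it was 29.3% (25.1 to 34.0) at 5 to 10 kb, 13.0% at 10 to 20 kb, 15.02% at 20 to 50 kb and 9.39% (6.34 to 13.7) at 50 to 100 kb. The nearest RARβ peak of the 299 was itself distal for 207, in H3K4me3 for 58 and within 5 kb of it for 34. For 64 of the 299 the edges were at most 1 kb apart, the closest 3 bp. Whether such neighbours are parts of 1 binding region was not tested.

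Peaks with many tags were more frequent among grouped distal peaks than among single ones, while the medians differed little. At least 20 tags were found in 13.7% of the grouped peaks (41 of 299, 10.3 to 18.1) and in 5.97% of the single ones (88 of 1473, 4.87 to 7.30). The median was 10 tags and 639 bp in grouped and 9 tags and 612 bp in single distal peaks. The median fold was 22.99 in grouped and 20.92 in single distal peaks. Distal peaks occurred in 184 of the 955 groups of RARβ peaks. In 86 of these groups all members were distal, and 73 had a member in an H3K4me3 peak. A group had at most 4 distal peaks, which was reached in 4 groups, and 11 groups had 3.

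Of the 4 groups with 4 distal peaks, the strongest spanned 16.4 kb of chromosome 16, at 35083732 to 35100168. Its 4 peaks, in order of position, had 12, 40, 7 and 50 tags at folds of 26.82, 69.64, 15.33 and 65.13. The last of them, at 35098333 to 35100168, was with 1836 bp the widest distal peak, and lay 9.53 kb from a mark that held a RARβ peak. These 4 peaks are among the 5 near the broad domain on chromosome 16. On chromosome 14, a group of 7 at 67715976 to 67761597 had 4 distal peaks with 12, 29, 12 and 8 tags, flanked by peaks of 10, 8 and 9 tags that lay in H3K4me3. On chromosome 9, 4 distal peaks at 49188289 to 49198348 had 17, 10, 8 and 8 tags and lay in the same gap as the site with a fold of 88.99. On chromosome 18, 4 peaks at 4609876 to 4619226 had 14, 11, 7 and 8 tags, and none of their nearest marks held RARβ. Of the 11 groups with 3 distal peaks, the strongest by tags spanned 8851421 to 8861650 of chromosome 17, with 37, 19 and 10 tags.

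**Figure D5:**
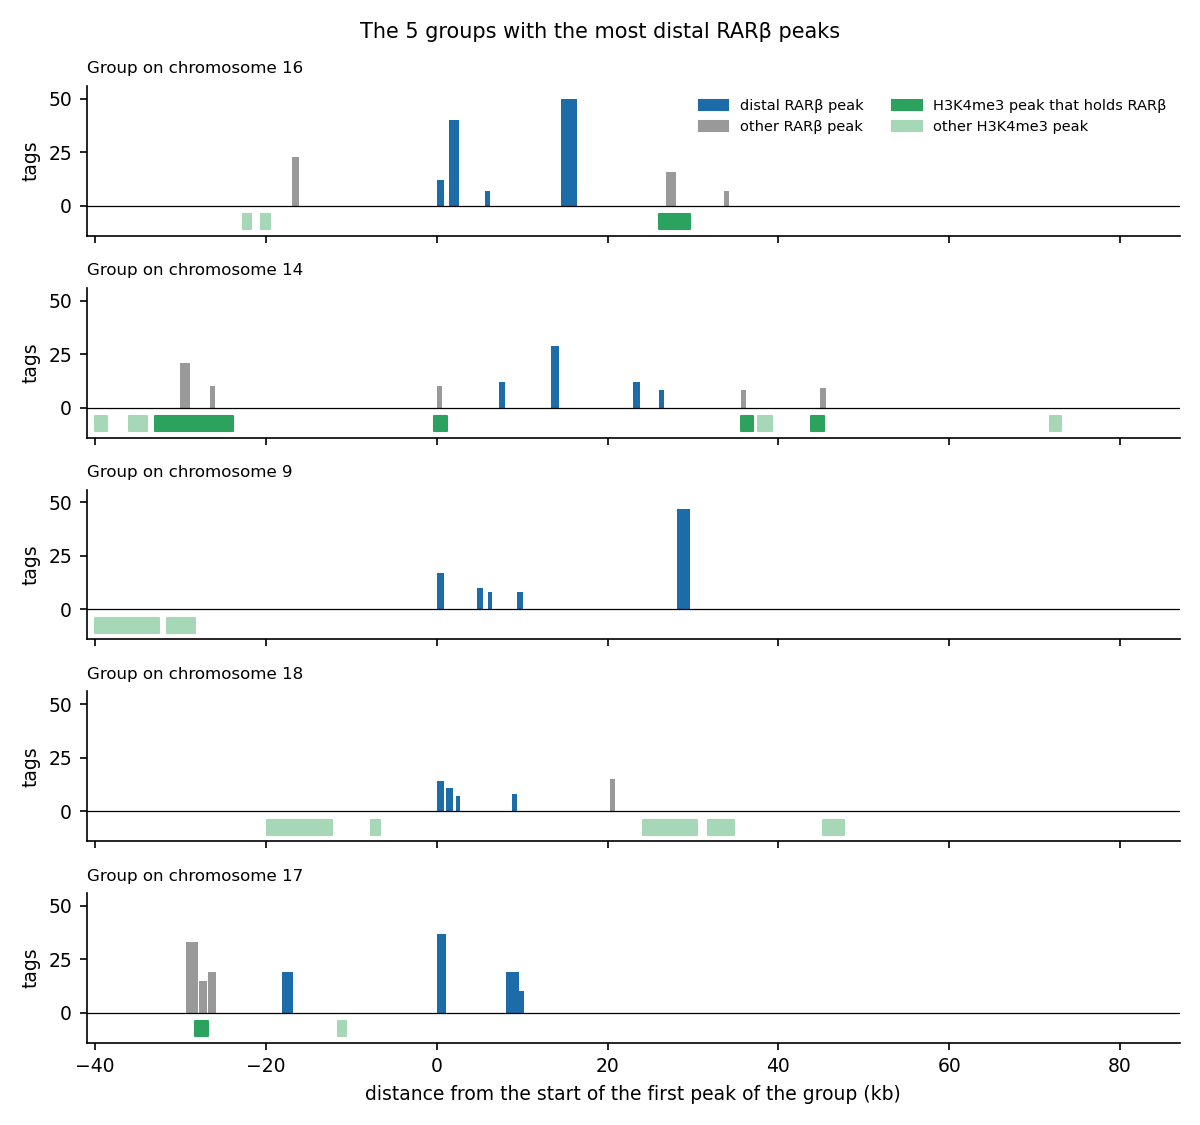
The 5 named groups, 1 per panel, as distance from the start of the first peak of the group (x axis, kb), with RARβ peaks as bars of their tags (y axis), blue for distal and grey for other ones, and H3K4me3 peaks as green blocks below the line that have no scale in height. The group on chromosome 16 has the 2 tallest distal bars of its panel at 40 and 50 tags.

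Some stretches between neighbouring marks held many distal peaks. At least 1 was found in 1510 of 25618 gaps over 10 kb, or 5.89%. In 194 of these gaps there were 2 or more, so 456 distal peaks (25.7%) shared a gap with another. The most, 6, were found in 3 gaps. The gap on chromosome 4 from 12169004 to 12461229 held 6 with 7, 10, 30, 22, 8 and 14 tags. The gap on chromosome 1 from 39262509 to 39418633 held 6 with 8, 14, 10, 20, 7 and 7 tags, and neither of its flanking marks held RARβ. On chromosome 7, from 85443551 to 85645111, the 6 had 19, 7, 8, 8, 8 and 7 tags. A gap of only 70.0 kb on chromosome 13, from 93757652 to 93827616, held 5 with 43, 12, 17, 22 and 7 tags.

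Distal peaks were unevenly spread over the chromosomes. Among autosomes the density in the distal zone ranged from 1.07 per Mb (0.854 to 1.31) on chromosome 3 to 1.79 per Mb (1.47 to 2.16) on chromosome 12, around 1.34 per Mb over all of them. On the X, of which males carry 1 copy, there were 6 distal peaks in 59.9 Mb, or 0.100 per Mb. This is 0.0746 of the autosomal density (Poisson 95% interval 0.0274 to 0.162). For peaks in H3K4me3 per Mb of mark, the ratio of X to autosomes was 0.282 (0.196 to 0.392). The part of copy number and of sequence where reads cannot be placed was not tested. The strongest of the 6 lay at 153807627 to 153808549 with 31 tags and a fold of 91.95, and the others had 7 to 18 tags.

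The richest windows of 5 Mb were picked after their values were seen. On chromosome 6, the window from 95 to 100 Mb held 22 distal peaks (Poisson 95% interval 13.8 to 33.3), against 3.76 at the autosomal density. Of these 22, 16 were in groups, and the largest had 24 tags. The window from 105 to 110 Mb of chromosome 12 held 19, against 4.72, and the window from 85 to 90 Mb of chromosome 7 held 17, against 4.68. The median over 504 autosomal windows was 3 distal peaks.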

How the data were processed

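Peak lists of the anti-RARβ and anti-H3K4me3 libraries were used, and the anti-GFP library is not used here. The submitters' processing notes name CASAVA 1.8.2, Bowtie, MACS 1.4.2 and mm9. Per the file headers, MACS 1.4.2 called peaks per library with a p cutoff of 1e-05, keeping at most 1 tag per position, and both lists share their control. The control was scaled down to the RARβ library but up to the much deeper H3K4me3 library. The RARβ library had 4994799 tags and 2237580 after filtering, the H3K4me3 library 47461843 and the control 3703580 after filtering. Whole tag counts per peak were deposited without normalization. Fold enrichment is the ratio that the authors' peak caller gave. The deposited score was recognised from the column order, since its name was lost. The FDR in percent was deposited for every peak, and 65.0% of H3K4me3 peaks had one above 5%.

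Distances were taken as differences of edge coordinates, and grouping joined summits at most 10 kb apart. Sequence of the zone was measured in the gaps between neighbouring H3K4me3 peaks of a chromosome, and for distances from stronger or broad marks on points every 500 bp. Wilson, exact Poisson and order-statistic 95% intervals cover counting error only, and peaks are not independent. Distances, holding and densities were checked on simulated intervals. Calculations used Python 3.11.15, numpy 2.4.6, pandas 2.3.3, scipy 1.17.1 and matplotlib 3.10.9.

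The members and lists were chosen with earlier results of these data known. Named peaks are the 10 distal peaks with the highest fold, score and tags, the 5 widest, those next to the bounds and the 5 groups with the most distal peaks, ties going to the group with more tags. Gaps, windows, X peaks and broad domains were picked after their values were seen. The planned comparisons of gene neighbours and motifs were not run, since an annotation and sequence of mm9 were not used here.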

Additional observations from a re-analysis of the deposited data

How the results depend on the processing

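Of 57 alternatives, 4 of them added after seeing the data, 31 stayed within the 95% interval of the reported value and 26 did not. The distal share was 35.3% with H3K4me3 peaks limited to an FDR of 5%, 33.9% with those above the median score, 17.6% with RARβ peaks of at least 10 tags and 24.0% from summit to summit. It was 26.5% and 17.003% with lower bounds of 2 and 10 kb, and 18.9% and 24.0% with upper bounds of 50 and 200 kb. Under the FDR limit, distal minus other RARβ peaks was -25 bp in median width and 0.28 in median score. The grouped share under this limit was 26.3%, against 28.2% of all RARβ peaks. The share nearest to the widest 10% of marks was then 28.8% (zone 12.2%) and to a mark with RARβ 33.8% (zone 22.2%). The density under this limit was 2.84 per Mb at a ratio of 1.49 between 5 to 10 and 50 to 100 kb. The grouped share was 9.14% and 29.8% with limits of 5 and 20 kb, against 20.1% and 38.9% of all RARβ peaks. It was 13.1% with peaks of at least 10 tags (all 21.3%) and 13.9% with peaks at most 1 kb apart joined (all 20.8%). The wide share was 1.64% for 8000 bp or more (zone 0.934%) and 18.7% for either flank (zone 18.1%). The share next to a mark with RARβ was 30.3% for either flank (zone 20.4%) and 13.2% with peaks of at least 10 tags (zone 6.32%). It was 13.0% for single distal peaks (zone 11.0%) and 13.9% for those over 10 kb from the mark (zone 10.8%). Density with peaks of at least 10 tags was 0.545 per Mb. Changed definitions or fewer peaks enter by construction, and other causes were not tested. No paired analysis was possible because each antibody has 1 library. No peak under 7 tags was called at this depth, and the alternatives on motifs were not run.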
